A study of Mus musculus with 6 samples.

Results

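Differentiated C2C12 cells that carried the MyoD lentivirus but were not given doxycycline (Dox) were compared with C2C12 cells that were never transduced and were given Dox, so virus, drug selection and the absence of Dox entered the comparison together and cannot be told apart. The members and the gene lists were chosen with earlier results of these data known. By their labels, the members were 2 arrays of uninduced transduced cells and 2 arrays of non-transduced + Dox cells, which is 4 of the 6 arrays of the series. The other 2 arrays, of transduced cells given Dox (MyoD + Dox), are set beside them for some genes and lists. C2C12 is an established mouse myoblast line that exits the cell cycle and fuses into multinucleated myotubes when serum is reduced. All groups were low passage cells differentiated in medium with 2% horse serum and lysed on day 3, and their RNA was labeled with biotin and hybridized to Clariom S mouse arrays. The transduced cells held an integrated *Myod1* transgene under a tetracycline-responsive promoter in a vector that confers blasticidin resistance, and they were selected with blasticidin, whereas the non-transduced cells had neither virus nor selection. Whether replicate arrays stem from independent cultures is not stated, and the p-values therefore cover array-to-array spread that may be only technical.

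MyoD is a basic helix-loop-helix factor that switches on the muscle program, and in a Dox-inducible vector the transgene is meant to stay silent until the drug is given. Interferon stimulated genes form an antiviral program: sensors of foreign RNA or DNA lead to interferon production, and a complex of STAT proteins and IRF9 then binds a short repeated element in the promoters of its targets. Dox is a tetracycline antibiotic that can also slow protein synthesis on mitochondrial ribosomes.

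The identity of the cells was read from 7 muscle markers, which lay between log2 signals of 11.35 and 18.81 on the 4 arrays, where the array background was 6.01 to 6.10. Of the markers of other cells, 2 of 9 adipocyte genes, 1 of 9 osteoblast and chondrocyte genes and 2 of 13 macrophage, endothelial and neural genes were above background on all 4 arrays. The median signal of exon control probe sets was 10.32 and 10.27 on uninduced arrays, against 10.41 and 10.56 on non-transduced arrays, and the number of genes above background ranged over the 4 arrays between 9394 and 9546.

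The arrays did not separate by group. The first uninduced array and the first non-transduced array were the closest pair of the 6, with 348 genes at least 2-fold apart, which was fewer than the 739 genes between the 2 uninduced arrays or the 2921 genes between the 2 non-transduced arrays. The second uninduced array differed from the first non-transduced array by 863 genes. The second non-transduced array stood apart, with 3069 genes 2-fold apart in the first uninduced array and 3868 genes in the second. Each array is therefore given by itself, and list medians that shift by over 1.5 times without a non-transduced array are also given without it.

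**Figure D1:**
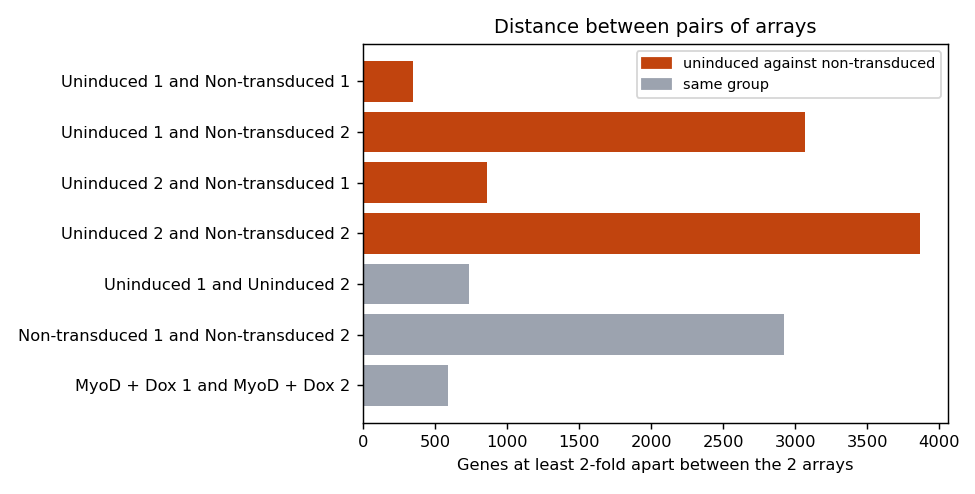
Number of genes (horizontal axis) at least 2-fold apart between 2 arrays, for the 4 pairs of an uninduced and a non-transduced array (red) and the pair within each group (grey). The first uninduced and first non-transduced arrays differ in 348 genes, against 2921 genes between the 2 non-transduced arrays.

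With this spread, 0 of 19505 genes passed an adjusted p of 0.05 in limma's test (0% of genes), and the lowest adjusted p was 0.637. Without the first non-transduced array 2191 genes passed, in a fit that set the uninduced cells against 1 array and assumed that it varies like the other groups, and without any other single array 0 passed. At an unadjusted p under 0.05 there were 606 genes higher (3.11% of genes) and 608 genes lower (3.12%) in uninduced cells. For 3750 genes both uninduced arrays were above both non-transduced arrays (19.2%), and for 3745 genes both were below (19.2%). A stricter rule asked for a gap of at least 2-fold between the nearest arrays of the groups with the higher group above background, and it held for 57 genes higher (0.292%) and 21 genes lower (0.108%) in uninduced cells. By this rule, leaving out 1 of the 4 arrays can only keep or raise these counts. It gave 66 to 1297 genes higher and 31 to 1135 genes lower, with both highest counts lacking the first non-transduced array. An exact permutation of 2 arrays against 2 cannot give a two-sided p below 0.333, so each gene is given mainly by its arrays. The log2 difference, its 95% interval and limma's p are added for some genes only.

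*Myod1*, the gene carried by the virus, had log2 signals of 9.0 and 7.91 in uninduced cells and 8.72 and 10.68 in non-transduced cells. The groups overlapped, with a difference of -1.25 (95% interval -3.10 to 0.61, unadjusted p = 0.150). Both MyoD + Dox arrays were higher than all 4, at 11.51 and 12.54. The probe set does not separate transgene from endogenous transcript as far as the sources used here state.

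Of the 30 gene lists, interferon stimulated genes had the most members past the 2-fold gap, all of them higher in uninduced cells. Of 47 members measured, 42 had both uninduced arrays above both non-transduced arrays (89.4%, beside 19.2% of all genes) and 0 had both below. The 2-fold gap held for 21 members higher and 0 lower, beside 0.292% and 0.108% of all genes. At an unadjusted p under 0.05, 23 members were higher and 0 lower, beside 3.11% and 3.12% of all genes. The adjusted test was passed by 0. The median log2 difference of the list was 1.67, beside a median over all genes of -0.001. The list averaged 8.96 and 8.93 on the uninduced arrays and 7.72 and 6.52 on the non-transduced arrays. The median difference was 0.98 without the second non-transduced array and 2.35 without the first.

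The promoters of the 4 members with the widest gap among those that hold the motif are shown because the element bound by the interferon-activated complex can be seen in them. Each runs 5′ to 3′ on the gene's strand, 250 bases before to 50 bases after the start site (RefSeq, GRCm38.p6), with capitals for the motif TTTC, any 2 bases, TTTC, searched on both strands. They lie at chr19:34640639-34640938 (Ifit1, plus strand), chr7:104465144-104465443 (Trim30a, minus strand), chr19:34583279-34583578 (Ifit3, plus strand) and chr19:34607707-34608006 (Ifit3b, plus strand).
Ifit1: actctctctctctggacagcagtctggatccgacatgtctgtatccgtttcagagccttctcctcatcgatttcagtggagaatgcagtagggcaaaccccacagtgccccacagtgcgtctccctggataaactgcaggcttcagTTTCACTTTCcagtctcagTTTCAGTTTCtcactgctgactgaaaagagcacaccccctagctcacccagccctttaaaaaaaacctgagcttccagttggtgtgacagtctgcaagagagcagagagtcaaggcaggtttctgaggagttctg
Trim30a: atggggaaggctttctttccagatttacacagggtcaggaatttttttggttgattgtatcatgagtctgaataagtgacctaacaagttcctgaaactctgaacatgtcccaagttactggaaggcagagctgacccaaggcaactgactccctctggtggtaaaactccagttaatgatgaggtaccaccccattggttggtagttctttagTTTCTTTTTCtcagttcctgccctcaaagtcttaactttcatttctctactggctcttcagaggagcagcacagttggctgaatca
Ifit3: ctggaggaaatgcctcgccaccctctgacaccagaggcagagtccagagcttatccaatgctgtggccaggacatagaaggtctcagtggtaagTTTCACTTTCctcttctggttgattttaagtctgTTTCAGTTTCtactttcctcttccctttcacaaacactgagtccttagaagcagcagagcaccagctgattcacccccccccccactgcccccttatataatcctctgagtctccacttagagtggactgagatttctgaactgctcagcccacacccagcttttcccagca
Ifit3b: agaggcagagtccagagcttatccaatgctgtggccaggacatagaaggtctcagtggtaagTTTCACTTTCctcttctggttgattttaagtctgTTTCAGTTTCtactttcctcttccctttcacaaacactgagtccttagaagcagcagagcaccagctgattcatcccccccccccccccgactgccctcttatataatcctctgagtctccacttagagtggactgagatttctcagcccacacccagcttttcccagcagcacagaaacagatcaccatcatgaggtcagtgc
The motif begins 104 and 85 bases before the start of Ifit1, 36 bases before that of Trim30a, 156 and 122 bases before that of Ifit3, and 188 and 154 bases before that of Ifit3b. Among the 21 members with a gap, 16 had a promoter in the RefSeq table, and 12 of these held the motif at a listed start (75.0%). Among the 26 other members, 20 had one and 8 held it (40%), while it was found in 618 of 15691 measured genes (3.94%) and in 1131 of 32851 promoters of the same length (3.44%). A match describes these letters only.

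*Ifit1*, which binds viral RNA lacking host cap methylation, had the widest gap, with log2 signals of 10.02 and 10.34 in uninduced cells and 6.30 and 5.36 in non-transduced cells. The non-transduced signal was above background on 1 of 2 arrays, and the difference was 4.35 (95% interval 1.45 to 7.25, unadjusted p = 0.0108, adjusted p = 0.637). In MyoD + Dox cells it was 10.63 and 6.81, 1 array near each of the other groups. *Trim30a*, a tripartite motif protein, had 8.30 and 8.47 in uninduced cells and 5.11 and 3.96 in non-transduced cells. The non-transduced signals were not above background, and the gene was at least 5.03-fold higher in uninduced cells. Folds given as at least compare group means, with dim arrays raised to background, so single arrays can lie closer. *Oasl2*, of the oligoadenylate synthetase family, had 11.96 and 11.89 in uninduced cells and 9.10 and 6.85 in non-transduced cells. By the gap rule that picked them, none of these 3 genes had an uninduced array within 2-fold of a non-transduced one.

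*Ifit3* had 13.24 and 13.52 in uninduced cells and 10.61 and 7.16 in non-transduced cells. For *Ifit3* the difference was 4.49 (95% interval -0.06 to 9.05, limma unadjusted p = 0.0524). Its neighbor *Ifit3b* had 12.78 and 13.22 in uninduced cells and 10.34 and 6.51 in non-transduced cells, and since these genes are close copies their probe sets may share signal. The uninduced arrays were alike for both, and the non-transduced arrays were far apart. *Xaf1*, an antagonist of an inhibitor of apoptosis, had 10.53 and 10.70 in uninduced cells and 8.47 and 7.69 in non-transduced cells. *Rtp4*, a receptor transporter protein, had 8.56 and 8.75 in uninduced cells and 6.30 and 5.35 in non-transduced cells.

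*Irf9*, the DNA-binding subunit of the interferon-activated complex, had 8.59 and 8.59 in uninduced cells and 6.41 and 5.55 in non-transduced cells, a difference of 2.61 (unadjusted p = 0.00669). *Irf7*, the factor that amplifies interferon production, had 6.37 and 6.24 in uninduced cells and was not above background in non-transduced cells (4.26 and 3.14), at least 1.19-fold higher. *Dhx58*, a regulator of RNA sensing, had 6.11 and 6.48 in uninduced cells and 4.25 and 3.77 in non-transduced cells, at least 1.18-fold higher. *Isg15*, the ubiquitin-like modifier, had 6.41 and 6.81 in uninduced cells and 4.70 and 4.59 in non-transduced cells, at least 1.47-fold higher. These 3 genes were close to background even where they were high. By contrast the brightest members that passed neither rule, *Ifitm2* and *Ifitm3*, which block virus entry, came nearer to overlap. *Ifitm3* had 15.41 and 15.51 in uninduced cells and 14.86 and 12.62 in non-transduced cells.

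**Figure D2:**
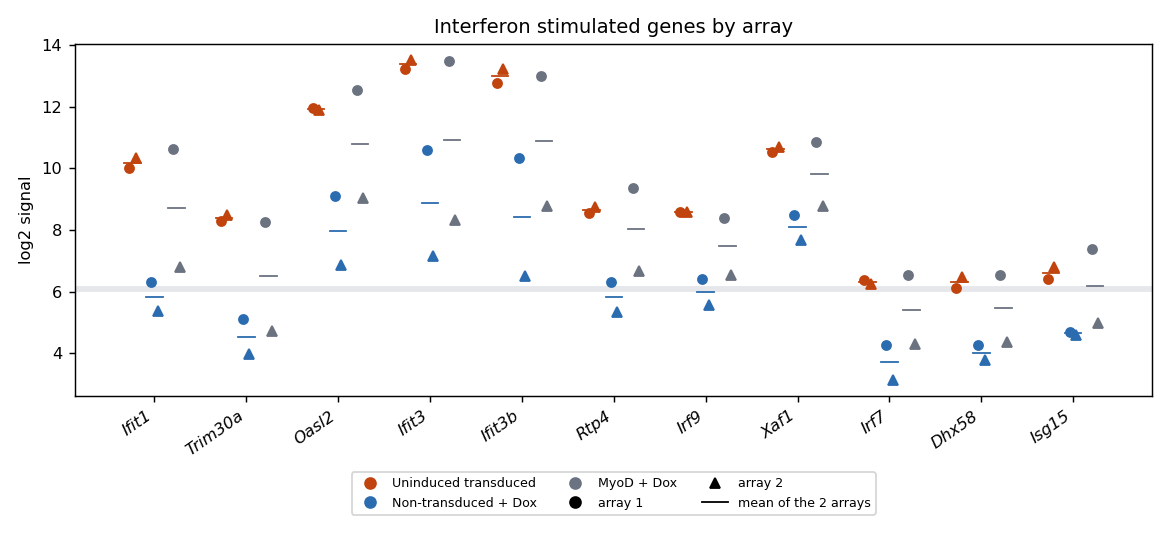
Log2 signal (vertical axis) of 11 interferon stimulated genes on each array, with uninduced transduced cells left, non-transduced + Dox cells in the middle and MyoD + Dox cells right of each gene. Circles are array 1, triangles array 2, lines the mean of the 2 arrays, and the grey band the array background of 6.01 to 6.15. Both uninduced arrays lie above both non-transduced arrays for every gene shown, which follows from drawing only members with a 2-fold gap. The 2 MyoD + Dox arrays lie apart.

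The 2 MyoD + Dox arrays disagreed on the same list, which averaged 9.11 on the first and 7.39 on the second. Adult sarcomere genes were set beside the interferon list on the same arrays. The first uninduced and first non-transduced arrays averaged 9.91 and 9.95 over adult sarcomere genes but 8.96 and 7.72 over interferon stimulated genes. The 2 uninduced arrays averaged 9.91 and 8.48 over adult sarcomere genes and 8.96 and 8.93 over interferon stimulated genes. The 2 non-transduced arrays averaged 9.95 and 11.98 over adult sarcomere genes and 7.72 and 6.52 over interferon stimulated genes, and the 2 MyoD + Dox arrays 11.37 and 11.76 and 9.11 and 7.39. In the non-transduced and MyoD + Dox pairs the array with more sarcomere signal had less interferon signal, though the MyoD + Dox arrays were near in sarcomere signal. The uninduced pair was unlike in sarcomere signal and nearly equal in interferon signal. The part of differentiation in the interferon result was not tested.

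Lists next to the interferon response were less uniform. Among 23 genes for sensing nucleic acid and restricting retroviruses, 11 had no overlap higher (47.8%) and 4 lower (17.4%), beside 19.2% of all genes. The unadjusted p was under 0.05 for 4 higher and 1 lower, beside 3.11% and 3.12% of all genes. A 2-fold gap was found for 0, and the median difference of 0.37 was 0.19 without the second non-transduced array. *Tlr3*, the sensor of double-stranded RNA in endosomes, had 10.27 and 10.53 in uninduced cells and 9.37 and 6.71 in non-transduced cells. *Adar*, which edits double-stranded RNA, had 10.31 and 10.18 in uninduced cells and 9.28 and 8.92 in non-transduced cells. *Samhd1*, which depletes the nucleotides that reverse transcription needs, had 11.79 and 12.53 in uninduced cells and 11.32 and 8.89 in non-transduced cells. The 1 lower gene was *Irf3*, the factor activated by those sensors, with 7.49 and 7.53 in uninduced cells and 7.88 and 8.27 in non-transduced cells.

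Of 18 genes for antigen presentation by MHC class I, 11 had no overlap higher (61.1%, beside 19.2% of all genes) and 1 lower. The unadjusted p was passed by 0 in either direction, and the median difference was 0.49. *B2m*, the light chain of MHC class I, had 18.18 and 18.27 in uninduced cells and 17.93 and 15.58 in non-transduced cells, so most of its difference of 1.47 came from the second non-transduced array. Without that array the list's median was 0.16, and without the first non-transduced array it was 1.11. Of 34 chemokines, cytokines and NF-kB targets, 13 had no overlap higher (38.2%) and 3 lower (8.82%), beside 19.2% of all genes. The unadjusted p was passed by 4 members higher and 1 lower, beside 3.11% and 3.12% of all genes. The median of 0.74 was 0.16 without the second non-transduced array and 1.75 without the first. *Il33*, an alarmin cytokine, was the 1 member with a 2-fold gap, with 10.16 and 9.99 in uninduced cells and 8.27 and 6.05 in non-transduced cells. *Ccl5*, a chemokine for T cells, had 6.46 and 7.90 in uninduced cells and 5.81 and 4.84 in non-transduced cells, where it was not above background, at least 2.19-fold higher.

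Among the 36 genes with a gap higher in uninduced cells that are not in the interferon list, 34 are in none of the 30 lists. The lists are not complete, so a gene outside the interferon list may still belong to that response. *Tgtp2* and *Samd9l*, picked from the 34 after their values were seen, were higher on the first MyoD + Dox array, as the interferon list was. Their MyoD + Dox signals were 8.01 and 6.08 for *Tgtp2* and 12.36 and 10.42 for *Samd9l*. *Gfra2*, a co-receptor for neurturin, had 12.86 and 13.84 in uninduced cells and 11.12 and 8.54 in non-transduced cells (difference 3.52, unadjusted p = 0.00599). *Aldh3a1*, an aldehyde dehydrogenase, had 12.92 and 12.83 in uninduced cells and 10.82 and 4.85 in non-transduced cells. *Ppp1r3c*, which targets protein phosphatase to glycogen, had 7.40 and 8.43 in uninduced cells and 5.44 and 3.91 in non-transduced cells, at least 3.63-fold higher. *Scg2*, a secretory granule protein, had 6.03 and 7.25 in uninduced cells and 4.09 and 4.10 in non-transduced cells, at least 1.5-fold higher.

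In MyoD + Dox cells these 4 genes were nearer to non-transduced cells, at 10.89 and 10.98 for *Gfra2*, 10.18 and 7.43 for *Aldh3a1*, 5.16 and 4.96 for *Ppp1r3c*, and 3.98 and 4.07 for *Scg2*. A further 4 genes with a gap were picked after their values were seen. *Hgf*, the ligand of Met, had 13.12 and 14.82 in uninduced cells and 11.89 and 6.20 in non-transduced cells. *Igfbp3*, a carrier of insulin-like growth factors, had 13.24 and 14.76 in uninduced cells and 11.87 and 6.61 in non-transduced cells. *Lama4*, a laminin chain, had 9.40 and 9.40 in uninduced cells and 7.94 and 8.05 in non-transduced cells, the non-transduced arrays being alike here. *Txnip*, which restrains glucose uptake, had 14.88 and 15.04 in uninduced cells and 13.82 and 12.90 in non-transduced cells.

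Of 35 genes of glycolysis and the hypoxia response measured, 24 had both uninduced arrays below both non-transduced arrays and 2 above. The shares were 68.6% and 5.71%, beside 19.2% of all genes in each direction. At an unadjusted p under 0.05, 14 were lower and 2 higher, beside 3.12% and 3.11% of all genes. A 2-fold gap lower was found for 1, and 0 passed the adjusted test. The median difference was -0.73 and was -0.56 without the second non-transduced array. *Slc16a3*, which exports lactate, had 9.59 and 8.91 in uninduced cells and 11.19 and 11.67 in non-transduced cells, a difference of -2.19 (95% interval -2.94 to -1.43, unadjusted p = 0.00045, adjusted p = 0.637). Its MyoD + Dox signals were 11.09 and 11.17, close to the non-transduced cells.

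*Egln3*, a prolyl hydroxylase induced by hypoxia, had 13.01 and 11.65 in uninduced cells and 13.84 and 14.56 in non-transduced cells. *Pgk1*, a glycolytic kinase that makes ATP, had 14.20 and 13.85 in uninduced cells and 14.97 and 15.28 in non-transduced cells. *Bnip3*, a mitophagy receptor, had 9.46 and 8.97 in uninduced cells and 10.20 and 10.14 in non-transduced cells. For these 3 genes the groups did not overlap but the nearest arrays were less than 2-fold apart. *Vegfa*, the angiogenic growth factor, had 11.41 and 11.45 in uninduced cells and 12.27 and 13.89 in non-transduced cells. *Gapdh* and *Pkm*, the brightest members that did not pass, had differences of -0.55 and -0.42.

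Of the 21 genes lower by the gap rule, 17 are in none of the lists. *Mif*, a macrophage migration inhibitory cytokine, had 10.60 and 9.95 in uninduced cells and 11.98 and 12.51 in non-transduced cells (difference -1.97, unadjusted p = 0.000792). *Fam162a*, a mitochondrial protein of the hypoxia response, had 10.54 and 10.44 in uninduced cells and 11.75 and 12 in non-transduced cells. Both were near the non-transduced level in MyoD + Dox cells, at 11.75 and 11.85 for *Mif* and 11.87 and 11.97 for *Fam162a*. *Serpinb9c* had 4.96 and 4.70 in uninduced cells, not above background, and 6.46 and 6.93 in non-transduced cells, at least 1.59-fold lower in uninduced cells. *Serpinb9g* is a serine protease inhibitor of the same cluster, whose copies are alike enough that probe sets may share signal. It had 5.15 and 4.49 in uninduced cells and 6.81 and 10.18 in non-transduced cells. By the group means it was at least 5.53-fold lower, mostly through the second non-transduced array. In MyoD + Dox cells it was far brighter than in all 4, at 12.32 and 13.80.

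Other genes lower by the gap rule include membrane, matrix and nuclear proteins. In every gene lower by this rule the second non-transduced array was the highest of the 4. *Popdc2*, a Popeye domain protein that binds cyclic AMP, had 5.36 and 4.46 in uninduced cells and 6.87 and 10.45 in non-transduced cells. By the group means it was at least 6.19-fold lower, mostly through the second non-transduced array. *Lamb3*, a laminin chain, had 6.11 and 4.61 in uninduced cells and 7.43 and 9.40 in non-transduced cells. *Trp63*, a transcription factor of the p53 family, had 8.55 and 7.14 in uninduced cells and 9.70 and 10.54 in non-transduced cells. In MyoD + Dox cells *Trp63* was higher than on any of these arrays, at 11.22 and 11.60. *Pkhd1*, the ciliary protein fibrocystin, was not above background in uninduced cells, with 4.27 and 4.69, and had 6.37 and 7.48 in non-transduced cells, at least 1.86-fold lower.

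Of 21 cholesterol synthesis genes measured, 14 had no overlap lower (66.7%, beside 19.2% of all genes) and 0 higher. At an unadjusted p 9 were lower and 0 higher, beside 3.12% and 3.11% of all genes. A 2-fold gap lower was found for 1, and 0 passed the adjusted test. The median difference was -0.86 and was -0.94 without the second non-transduced array. *Mvd*, mevalonate diphosphate decarboxylase, had 9.44 and 8.79 in uninduced cells and 10.59 and 11.18 in non-transduced cells, a difference of -1.77 (unadjusted p = 0.00169). *Idi1*, which isomerizes its product, had 12.57 and 11.75 in uninduced cells and 13.27 and 13.34 in non-transduced cells.

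*Fdps*, which builds farnesyl diphosphate, had 11.18 and 9.93 in uninduced cells and 11.82 and 11.92 in non-transduced cells. *Fasn*, fatty acid synthase, had 10.12 and 9.84 in uninduced cells and 10.95 and 10.74 in non-transduced cells. The non-transduced arrays were alike for *Idi1*, *Fdps* and *Fasn*, and the second uninduced array was the lowest of the 4. Without it the list's median was -0.45. *Hmgcs1*, the synthase at the head of the pathway, overlapped between the groups, with 16.56 and 15.97 in uninduced cells and 16.94 and 16.49 in non-transduced cells.

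**Figure D3:**
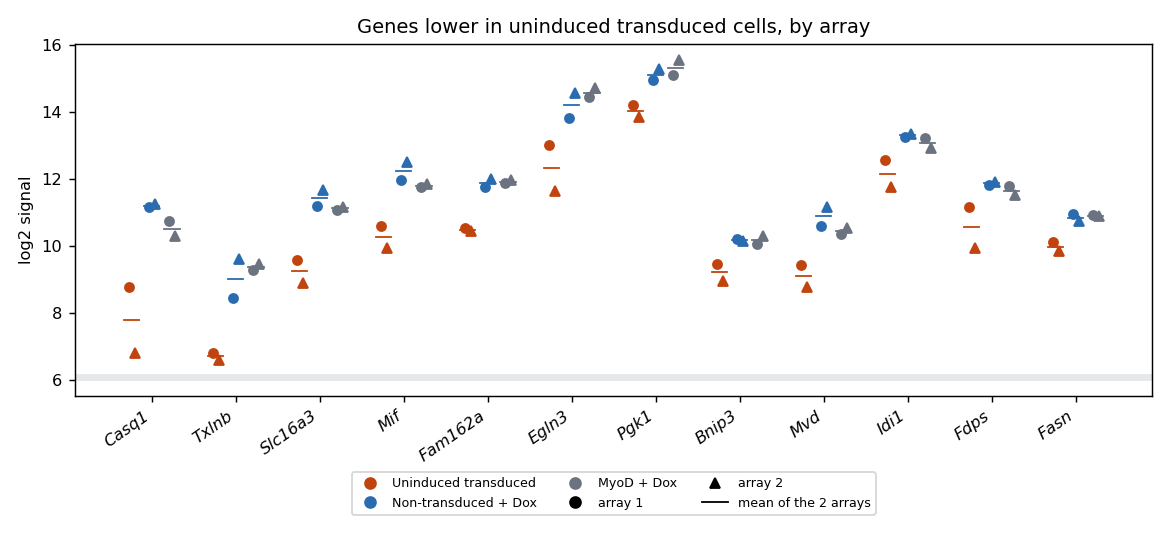
Log2 signal (vertical axis) of 12 genes lower in uninduced transduced cells, drawn by array in the order uninduced transduced, non-transduced + Dox and MyoD + Dox. Circles are array 1, triangles array 2, lines the mean, and the grey band the array background. Both uninduced arrays lie below both non-transduced arrays for every gene shown, which follows from drawing only genes without overlap. *Slc16a3* has MyoD + Dox signals of 11.09 and 11.17.

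The arrays of each group differed widely over muscle structural genes. Of 20 embryonic and fetal muscle genes, 13 had no overlap lower (65.0%, beside 19.2% of all genes). At an unadjusted p 7 were lower (beside 3.12% of all genes), none had a 2-fold gap, and the median was -2.41. Of 35 adult sarcomere genes, 18 had no overlap lower (51.4%) and 1 higher. At an unadjusted p 8 were lower (beside 3.12% of all genes), none had a gap, and the median was -2.0. The first uninduced and first non-transduced arrays had a median difference of -0.08 over each of these lists. The second arrays of the groups had median differences of -4.73 over fetal and -4.24 over adult genes. In these bulk samples, fewer cells of a type and less RNA per cell cannot be told apart.

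*Myog*, the factor that drives terminal differentiation, had 14.20 and 11.35 in uninduced cells and 13.88 and 16.50 in non-transduced cells, so the groups overlapped. *Acta1*, skeletal actin, had 17.10 and 15 in uninduced cells and 17.19 and 18.81 in non-transduced cells. *Tnnt2*, a troponin of developing muscle, had 14.56 and 11.88 in uninduced cells and 15.05 and 17.21 in non-transduced cells. In each of these genes the second uninduced array was the lowest and the second non-transduced array the highest of the 4.

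*Casq1*, the calcium store of the sarcoplasmic reticulum, was an exception in which the non-transduced arrays were alike. It had 8.77 and 6.81 in uninduced cells and 11.17 and 11.25 in non-transduced cells, a difference of -3.42 (95% interval -4.96 to -1.89, unadjusted p = 0.00171). *Txlnb*, a taxilin of muscle, had 6.82 and 6.61 in uninduced cells and 8.46 and 9.60 in non-transduced cells. Over the 19 calcium handling genes measured, 8 had no overlap lower (42.1%, beside 19.2% of all genes). At an unadjusted p 3 were lower (beside 3.12% of all genes), and 1 had a gap. Their median of -1.93 was -0.75 without the second non-transduced array and -3.26 without the first. The median was -1.03 for fetal and -0.73 for adult genes without the second non-transduced array, and -3.85 and -3.26 without the first.

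The 8 membrane associated genes that the study followed had a median of -2.62. It was -0.93 without the second non-transduced array and -4.31 without the first. The study chose them on these samples, which makes their direction no independent evidence. Of the 8, 5 had no overlap lower (62.5%, beside 19.2% of all genes). At an unadjusted p 4 were lower (beside 3.12% of all genes), and *Dysf* had a 2-fold gap. *Dysf*, which takes part in resealing the sarcolemma, was not above background in uninduced cells, with 5.36 and 5.22, and had 6.43 and 9.74 in non-transduced cells. By the group means it was at least 4.16-fold lower in uninduced cells, mostly through the second non-transduced array. *Trim72*, another membrane repair gene, had 10.48 and 8.18 in uninduced cells and 11.07 and 14.28 in non-transduced cells. *Mymk*, the fusogen, had 16.91 and 15.16 in uninduced cells and 17.16 and 18.36 in non-transduced cells.

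*Fabp3* had 8.30 and 7.59 in uninduced cells and 9.01 and 12.12 in non-transduced cells, and *Cav3*, caveolin of muscle, had 4.40 and 4.58 in uninduced cells and 4.70 and 9.52 in non-transduced cells, above background only on the second non-transduced array. The groups overlapped for *Xirp1*, *Megf10* and *Myot*, and *Myot* was not above background on any of the 4 arrays. Of 23 myogenic transcription factors and onset genes, 6 had no overlap lower (26.1%, beside 19.2% of all genes). At an unadjusted p 1 was lower, beside 3.12% of all genes. The median of -0.68 was -0.29 without the second non-transduced array and -1.21 without the first. Of 28 fusion genes, 5 had no overlap higher (17.9%) and 7 lower (25.0%), shares near the 19.2% of all genes in each direction. The unadjusted p was passed by 6 fusion genes lower and 0 higher, beside 3.12% and 3.11% of all genes. The median was 0.05, or -0.14 without the second non-transduced array and 0.03 without the first. *Mymx*, the other fusogen, had 7.71 and 5.98 in uninduced cells and 8.55 and 10.66 in non-transduced cells.

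**Figure D4:**
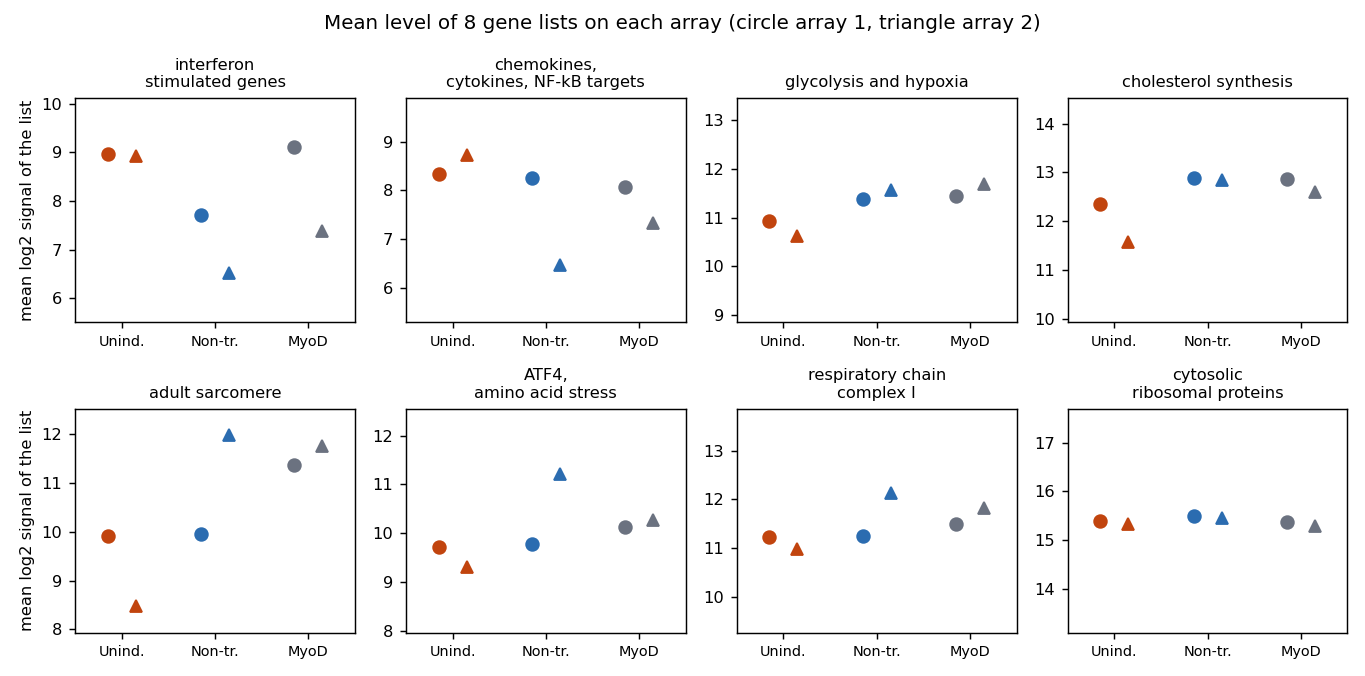
Mean log2 signal (vertical axis, each panel spanning the same range) of 8 gene lists on each array, with uninduced transduced cells left, non-transduced + Dox cells in the middle and MyoD + Dox cells right. Circles are array 1 and triangles array 2. The interferon list is 8.96 and 8.93 on the uninduced arrays, and the adult sarcomere list is 9.91 on the first uninduced and 9.95 on the first non-transduced array.

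Mitochondrial lists depended on which non-transduced array was used. Their counts at an unadjusted p stand beside 3.12% of all genes lower and 3.11% higher. Of 36 complex I genes, 19 had no overlap lower (52.8%, beside 19.2% of all genes) and 0 higher, 2 were lower at an unadjusted p, and the median of -0.58 was -0.12 without the second non-transduced array and -1.06 without the first. Of 42 genes of complexes II to V, 18 had no overlap lower (42.9%) and 1 higher, 1 was lower at an unadjusted p, with a median of -0.61 that was -0.15 without the second and -1.09 without the first. Of 77 mitochondrial ribosomal protein genes, 20 had no overlap lower (26.0%, near the 19.2% of all genes) and 5 higher, 6 were lower at an unadjusted p, with a median of -0.38 that was -0.06 without the second and -0.70 without the first. *Ndufs4*, a subunit of complex I, had 9.96 and 9.95 in uninduced cells and 10.45 and 11.76 in non-transduced cells. The 37 mitochondrial translation factors had a median of -0.24 with 1 higher at an unadjusted p, and the 26 mitochondrial stress genes a median of -0.44 with 1 lower. These medians were -0.06 and -0.03 without the second non-transduced array, and -0.43 and -0.69 without the first.

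Of 38 ATF4 and amino acid stress genes, 19 had no overlap lower (50.0%, beside 19.2% of all genes) and 1 higher. At an unadjusted p 5 were lower, beside 3.12% of all genes. The median of -0.81 was -0.24 without the second non-transduced array and -1.52 without the first. *Fgf21*, a hormone of the stress response, had 7.34 and 6.26 in uninduced cells and 8.10 and 12.49 in non-transduced cells. *Slc7a5*, an amino acid transporter, had 12.99 and 11.37 in uninduced cells and 13.60 and 16.18 in non-transduced cells. *Atf5*, a stress transcription factor, had 7.13 and 6.73 in uninduced cells and 7.80 and 8.28 in non-transduced cells, with the non-transduced arrays nearer to each other.

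The remaining lists had few members past either rule. Without the second non-transduced array the medians were 0.12 for replication, 0.06 for reserve cell genes, 0.12 for oxidative stress, -0.05 for chaperones, -0.08 for collagens, 0.06 for metalloproteinases and -0.24 for TGF-beta targets. Without the first they were -0.10 for p53 targets, 0.08 for reserve cell genes, 0.03 for chaperones, 0.53 for collagens, 0.60 for metalloproteinases and -0.69 for TGF-beta targets. For proliferation, 2 of 37 DNA replication and mitosis genes were higher at an unadjusted p, with a median of 0.21, and *Mcm4*, a subunit of the replicative helicase, had 10.20 and 10.41 in uninduced cells and 9.60 and 9.38 in non-transduced cells. For p53 targets, 2 of 23 were higher, with a median of 0.27, among them *Trp53inp1* with 10.86 and 11.53 in uninduced cells and 10.15 and 9.74 in non-transduced cells. Of 24 reserve cell genes 1 was higher (median 0.13), namely *Id1*, an inhibitor of MyoD partners, with 12.20 and 11.79 in uninduced cells and 10.97 and 11.43 in non-transduced cells. Of 29 oxidative stress genes 2 were higher (median 0.35), and of 22 chaperone genes 1 was higher (median 0.02).

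Of 34 collagen and matrix genes 2 were lower at an unadjusted p (median 0.26), beside 3.12% of all genes. Of 26 metalloproteinases and inhibitors 1 was higher and 2 lower (median 0.27), and of 25 TGF-beta targets 3 were lower (median -0.38). *Tnc*, the matrix protein tenascin C, had 11.75 and 12.02 in uninduced cells and 12.61 and 14.77 in non-transduced cells. *Reck*, an inhibitor of metalloproteinases, had 9.0 and 9.52 in uninduced cells and 8.39 and 7.27 in non-transduced cells. Medians were -0.06 for adipocyte, -0.07 for osteoblast and chondrocyte, and -0.11 for macrophage, endothelial and neural markers. The 18 cytosolic ribosomal protein genes had a median of -0.09, and 0 passed an unadjusted p. Without the second non-transduced array the medians were -0.04 for osteoblast and chondrocyte markers and -0.14 for these ribosomal genes, and without the first they were -0.17 for adipocyte markers, -0.19 for osteoblast and chondrocyte markers and 0.02 for the ribosomal genes. The adipocyte median was 1.02 with the lowest 40% of genes left out.

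**Figure D5:**
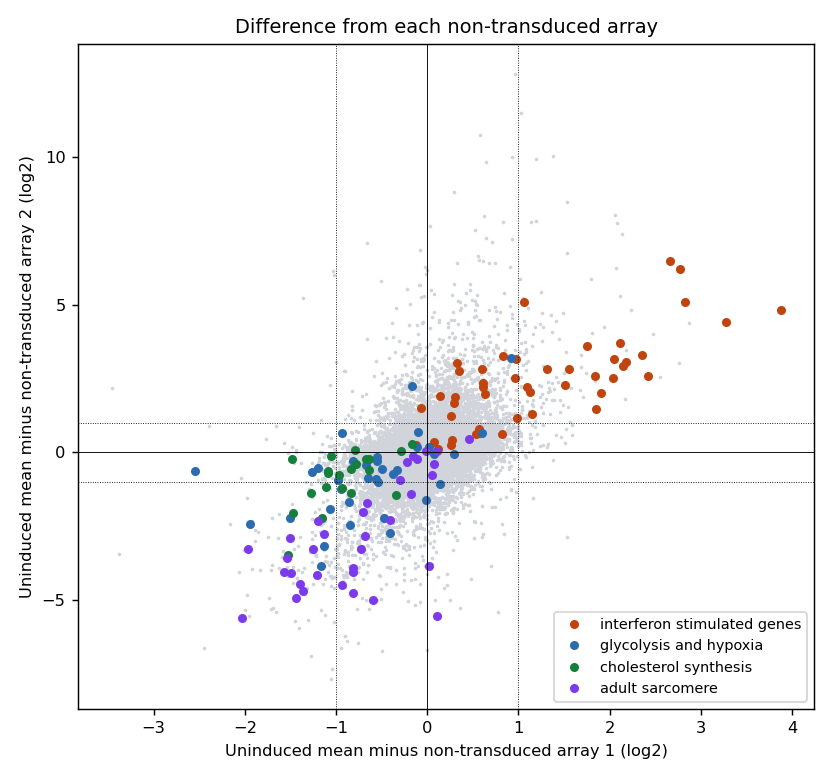
Log2 difference of the mean uninduced signal from non-transduced array 1 (horizontal axis) and from non-transduced array 2 (vertical axis) for all 19505 genes (grey), with 4 lists in color and dotted lines at 2-fold. The axes share the uninduced mean and differ in scale. Interferon stimulated genes lie to the upper right, with 21 members past a 2-fold gap, and adult sarcomere genes spread downward, with a median of -0.73 against array 1 and -3.26 against array 2.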

How the data were processed

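RNA of C2C12 cells was measured on 6 Clariom S mouse arrays, and samples were grouped by the labels. Extraction is given as Trizol in the labels and as RNeasy in the study's methods. Probe set intensity values, already normalized by the authors and linear, were taken as deposited. Affymetrix Expression Console appears in the submitters' notes. The study's methods name Signal Space Transformation Robust Multi-Array Average for the gene signals of its heat maps. Whether the deposited linear values were made by that method is not stated. Log2 of the deposited intensity was taken. Of 28846 probe sets, 19572 had 1 gene symbol, and for 55 genes with several the brightest was kept, leaving 19505 genes. Array background was the 90th percentile of 23 background probe sets. "At least" folds set the brighter group's mean against the higher of background and signal on each dim array. Limma 3.58.1 in R 4.3.3 was fitted to all 6 arrays (lmFit and eBayes, two-sided, 3 residual degrees of freedom), adjusted by Benjamini-Hochberg across the 19505 genes at a threshold of 0.05, and the fit was tested on simulated data. The number of arrays limits the precision. Named genes were *Myod1*, the study's 8 membrane genes, the 15 widest gaps in each direction among genes that also passed the unadjusted p, and of each list up to 6 members that passed and up to 2 that did not, leaving out predicted genes and chemosensory receptors. The members and the 30 lists were chosen with earlier results of these data known. Older symbols were updated through the RefSeq table. The alternatives were other scalings, filters, variance models, probe set choices, tests, pairing and leaving out each array.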

Additional observations from a re-analysis of the deposited data

Results flagged for a closer look

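The interferon stimulated genes averaged a log2 signal of 9.11 on the first MyoD + Dox array, which the comparison did not use, above the higher of the non-transduced arrays at 7.72. The second MyoD + Dox array averaged 7.39. For *Ifit1* the MyoD + Dox signals were 10.63 and 6.81, and for *Oasl2* they were 12.53 and 9.04. No comparison was tested for these arrays.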

How the results depend on the processing

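No gene passed the adjusted threshold under any alternative except without the first non-transduced array, where 2191 did, and other than by leaving out an array the lowest adjusted p was 0.134, in the methods' t-test. Without adjustment that test gave 429 genes higher and 395 lower, against 606 and 608 in the reported fit. The unadjusted counts were 352 higher and 347 lower with the lowest 40% of genes left out, where fewer genes were tested. They were 351 and 307 with the 4 arrays alone, where the MyoD + Dox arrays did not enter the estimate of the spread. In the reported fit they did. The cause of this second drop was not tested. Leaving out an array gave 208 to 2481 higher and 179 to 2550 lower. Deviations of same-numbered arrays correlated at -0.345 for uninduced and non-transduced cells, -0.054 for uninduced and MyoD + Dox cells and 0.41 for non-transduced and MyoD + Dox cells, so the numbers were not taken as pairs. A replicate block gave 577 higher, 533 lower and 0 past the adjusted threshold, and a crossed replicate block, chosen after seeing the data, gave 1110 higher, 1157 lower and 0. The gap counts of 57 higher and 21 lower were 2046 and 1944 for any gap above 0, and 9 and 1 for a 4-fold gap, which are looser and stricter by construction. They were 46 and 16 with signals raised to the array background, which narrows gaps that reach below it. Leaving out an array, which can only keep or raise the gap counts, gave 66 to 1297 higher and 31 to 1135 lower. The medians of 4 lists kept their sign under each alternative, with ranges over arrays left out of 0.98 to 2.35 for interferon stimulated genes, -0.85 to -0.52 for glycolysis and hypoxia, -1.19 to -0.45 for cholesterol synthesis and -3.26 to -0.73 for adult sarcomere. Of the other 26 lists, 9 had a median that turned in sign under an alternative. Over arrays left out, the range was -0.10 to 0.36 for p53 targets (lowest without the first non-transduced array) and -0.14 to 0.02 for cytosolic ribosomal proteins (highest without it). The median was -0.14 for fusion and -0.08 for collagen genes without the second non-transduced array, where chaperones were at -0.05, as also without the first uninduced array. It was -0.03 for both fusion and reserve cell genes with signals raised to background, 1.02 for adipocyte markers with the lowest 40% of genes left out and 0.02 without the second uninduced array, 0.04 for osteoblast and chondrocyte markers without the first uninduced array, and 0.09 for macrophage, endothelial and neural markers without the second. *Myot* ranged over arrays left out between -0.74 and 0.18, turning without the second uninduced array. Of the 168 genes the rule names, 21 changed sign under an alternative, 19 of them only when an array was left out.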

Other observations

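Of 2701 transcript probe sets that have no gene symbol here, 11 had a 2-fold gap higher and 1 had a gap lower in uninduced cells than in non-transduced cells. They were left out of all counts of genes.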
